A study of Homo sapiens with 8 samples.

Results

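The trypsins and epithelial serine proteases examined here are 10 genes in 3 roles. The trypsin group holds PRSS1, PRSS2 and PRSS3 with the trypsin inhibitor SPINK1. The membrane-anchored group holds PRSS8, ST14, TMPRSS2 and TMPRSS4, and the plasminogen activators are PLAU and PLAT. They were found by gene name among the non-control probes of an Agilent array, which gave 12 of its 42405 probes and 10 of its 34809 gene names. They were chosen by their roles with the difference in array intensity between BEX2-knockdown and control cells already known, so that difference is described below without a test. The cells were HuCCT1, an established human intrahepatic cholangiocarcinoma line, and total RNA was read on 8 single-colour arrays, 2 for each of 4 vectors. The vectors shControl and shNontarget are labelled control, and shBEX2-1 and shBEX2-2 are the BEX2-knockdown sublines. The 2 BEX2 target sequences printed in the study's methods are reverse complements of each other apart from a shift of 1 base. The sublines may therefore share a target site. The study's control hairpin targets luciferase, and which control vector carries it is not given in the sources used here. All 4 are short hairpin vectors, so no array holds cells without one, and neither the labels nor the methods say whether a subline is 1 clone. Nor do they say if separate cultures stand behind the paired arrays. The p-values and standard errors therefore measure the spread between these arrays, which may be technical. Each group holds 2 vectors with 2 arrays each, so n = 4 against 4 counts arrays and not independent sublines.

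Serine proteases cut proteins with a catalytic serine and are mostly made as inactive precursors. Trypsins are best known from the pancreas. Enteropeptidase activates them in the gut lumen and SPINK1 blocks premature activity in the gland, but tumor and biliary epithelia can also make them. Matriptase (ST14) and prostasin (PRSS8) sit at the epithelial surface and activate each other and other precursors, held in check by the Kunitz inhibitors SPINT1 and SPINT2. PLAU (urokinase) and PLAT (tissue plasminogen activator) turn plasminogen into plasmin. Trypsin and several of the surface proteases also cut the receptor F2RL1 (PAR2).

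All values are log2 of the scanner's processed intensity minus the 75th percentile of the same array, so 0 is the level below which 75% of an array's spots lie and 1 unit is a doubling. The 12 probes were well above background on all 8 arrays and none was saturated. The deposited arrays had between 59.8% and 64.6% of 58717 non-control spots well above background, and precision is set by how few arrays there are. The shNontarget arrays stood apart from each other. They differed by more than 1 log2 unit at 34.7% of the 25071 probes kept, against 1.81% for shControl, 1.48% for shBEX2-1 and 0.523% for shBEX2-2. All 8 arrays lay on 1 slide, the control arrays in one row and the BEX2-knockdown arrays in the other, so slide position and group cannot be told apart. The targeted gene, BEX2, was at -3.44 on the control arrays and -5.07 on the BEX2-knockdown arrays, a fall of 1.63 (SE 0.318, n = 4 against 4, adjusted p = 0.0112 by limma). Its probe was not well above background on either shBEX2-1 array, and with normexp background correction the difference was -0.45 (adjusted p = 0.0766). Apart from the arrays, the study reported minimal BEX2 in its HuCCT1 knockdown sublines, measured by real-time PCR and by western blot. Of 8 biliary epithelial markers, all were well above background on every array, including KRT7 and KRT19. Of 9 pancreatic acinar markers on the array, 5 were well above background on no array, among them PTF1A and CPA1, and only CEL was so on all 8. Of 6 hepatocyte markers, ALB and TTR were well above background on no array, and 0 were so on all 8. APOA1 was well above background on 6 arrays, HP on 5, and FGB and TF on 1 each.

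The trypsin genes are near copies of each other, so the probe sequences show what each one can measure. The PRSS1 probe lies at chr7:142459723-142459782 and the PRSS3 probe at chr9:33797923-33797982 (both hg19, plus strand), and they sample the same stretch of their genes. Over the 58 bases that they share, 49 are identical, and the 9 that differ are in capitals.
PRSS1: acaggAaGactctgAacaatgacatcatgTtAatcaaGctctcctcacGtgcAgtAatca
PRSS3: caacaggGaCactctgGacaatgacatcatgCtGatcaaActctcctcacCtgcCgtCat
Counted from the 5′ end of the PRSS1 probe, the differences from PRSS1 to PRSS3 are A6G, G8C, A15G, T30C, A32G, G38A, G49C, A53C and A56C.

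The PRSS2 probe, at chr7:142482228-142482287 (hg19, plus strand), samples another stretch of the gene and is shown for contrast, with no base in capitals.
PRSS2: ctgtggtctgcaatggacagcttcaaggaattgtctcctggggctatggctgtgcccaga
No ungapped overlap of at least 40 bases between the PRSS2 probe and any of the other probes on the array was over 75% identical. For the PRSS1 probe the PRSS3 probe alone was, and for the PRSS3 probe the PRSS1 probe alone. Whether transcripts of one trypsin gene bound the probe of another was not tested, and the 3 levels are uncertain to that extent.

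The 250 bases before the transcription start are alike in the 3 genes as well, and are shown because PRSS1 and PRSS2 were lower together while PRSS3 overlapped between the groups. Capitals mark TATAAA and CACCTG on either strand, where CACCTG read on the other strand is CAGGTG; the sequences are RefSeq's on GRCh38.p14, all on the plus strand, and PRSS3 has further start sites that are not shown.
PRSS1, chr7:142749222-142749471: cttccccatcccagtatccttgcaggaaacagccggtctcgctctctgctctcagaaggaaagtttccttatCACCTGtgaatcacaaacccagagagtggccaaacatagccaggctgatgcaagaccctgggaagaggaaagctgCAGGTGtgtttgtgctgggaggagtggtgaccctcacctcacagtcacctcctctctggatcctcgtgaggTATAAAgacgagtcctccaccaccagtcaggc
PRSS2, chr7:142770720-142770969: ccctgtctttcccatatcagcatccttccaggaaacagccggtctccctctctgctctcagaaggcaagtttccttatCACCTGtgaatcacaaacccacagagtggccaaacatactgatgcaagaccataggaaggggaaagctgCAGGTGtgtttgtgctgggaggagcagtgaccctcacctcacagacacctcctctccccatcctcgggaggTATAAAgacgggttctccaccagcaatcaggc
PRSS3, chr9:33795311-33795560: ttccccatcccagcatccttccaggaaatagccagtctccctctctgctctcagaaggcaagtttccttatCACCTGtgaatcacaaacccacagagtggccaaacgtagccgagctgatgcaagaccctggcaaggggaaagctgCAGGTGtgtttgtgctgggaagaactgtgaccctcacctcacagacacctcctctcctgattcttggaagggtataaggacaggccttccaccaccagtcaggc
The aligned bases are 91.0% identical between PRSS1 and PRSS2, 88.8% between PRSS1 and PRSS3 and 90.1% between PRSS2 and PRSS3. Each window holds CACCTG in 2 places, once in each orientation, and 17.5% of the 35116 windows of the same length in the table hold at least 1 match. TATAAA is present 1 time in PRSS1 and in PRSS2 and 0 times in PRSS3, and 10.72% of all windows hold it. At the matching place the PRSS3 window reads tataag, which differs from TATAAA only in its last base. These matches describe the sequence only.

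PRSS1, cationic trypsinogen, had the widest separation of the 12 probes. Its normalized log2 level was 2.23 and 2.05 on the shControl arrays, 2.60 and 1.28 on the shNontarget arrays, -2.29 and -2.56 on the shBEX2-1 arrays, and -1.64 and -1.56 on the shBEX2-2 arrays. Every BEX2-knockdown array was below every control array, and in scanner units the probe read at least 1625 (shNontarget replicate 2) in controls and at most 214.9 (shBEX2-2 replicate 2) in knockdown cells. The fitted difference between the groups was -4.05 (SE 0.315, n = 4 against 4), a 16.6-fold lower level, with -4.47 (SE 0.349) in shBEX2-1 and -3.64 (SE 0.349) in shBEX2-2. Here and below, the SE of a single subline measures the spread between arrays of the same vector and leaves out differences between vectors. The SE of both sublines together includes them, so the SEs cannot be compared as measures of precision. The order of the vectors was shControl, shNontarget, shBEX2-2 and shBEX2-1, and the arrays of the control vectors overlapped while those of the sublines did not.

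PRSS2, anionic trypsinogen, was lower by less on its probe. It was at 4.33 and 4.24 in shControl, 4.62 and 3.52 in shNontarget, 2.75 and 2.57 in shBEX2-1, and 2.56 and 2.57 in shBEX2-2. The groups again did not overlap, and the difference was -1.57 (SE 0.219, n = 4 against 4), a 2.96-fold lower level. Both sublines were lower by similar amounts, -1.52 (SE 0.298) and -1.61 (SE 0.298). On both probes the highest control array was shNontarget replicate 1 and the lowest was shNontarget replicate 2.

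PRSS3, mesotrypsin, which resists many trypsin inhibitors and can degrade them, did not separate the groups. Its level was 1.86 and 1.60 in shControl, 2.90 and 1.39 in shNontarget, 1.46 and 1.60 in shBEX2-1, and 1.38 and 1.48 in shBEX2-2. The groups overlapped, since shNontarget replicate 2 lay among the BEX2-knockdown arrays. In addition, shControl replicate 2 (1.599) was barely below shBEX2-1 replicate 2 (1.600). The difference between the groups was -0.46 (SE 0.290, n = 4 against 4), or -0.14 without shNontarget replicate 1. Although the PRSS1 and PRSS3 probes sample the same stretch, their fitted differences were therefore unlike, at -4.05 and -0.46.

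SPINK1, the secreted inhibitor that binds trypsin, was lowest in shBEX2-1 and highest in shNontarget. It was at -1.56 and -1.52 in shControl, -1.01 and -0.96 in shNontarget, -1.87 and -1.72 in shBEX2-1, and -1.37 and -1.27 in shBEX2-2. The arrays of each vector lay close together and no neighbours in this order overlapped, but control and knockdown vectors alternated. The difference between knockdown and control was -0.30 (SE 0.204, n = 4 against 4), made up of -0.53 (SE 0.124) in shBEX2-1 and -0.06 (SE 0.124) in shBEX2-2.

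**Figure D1:**
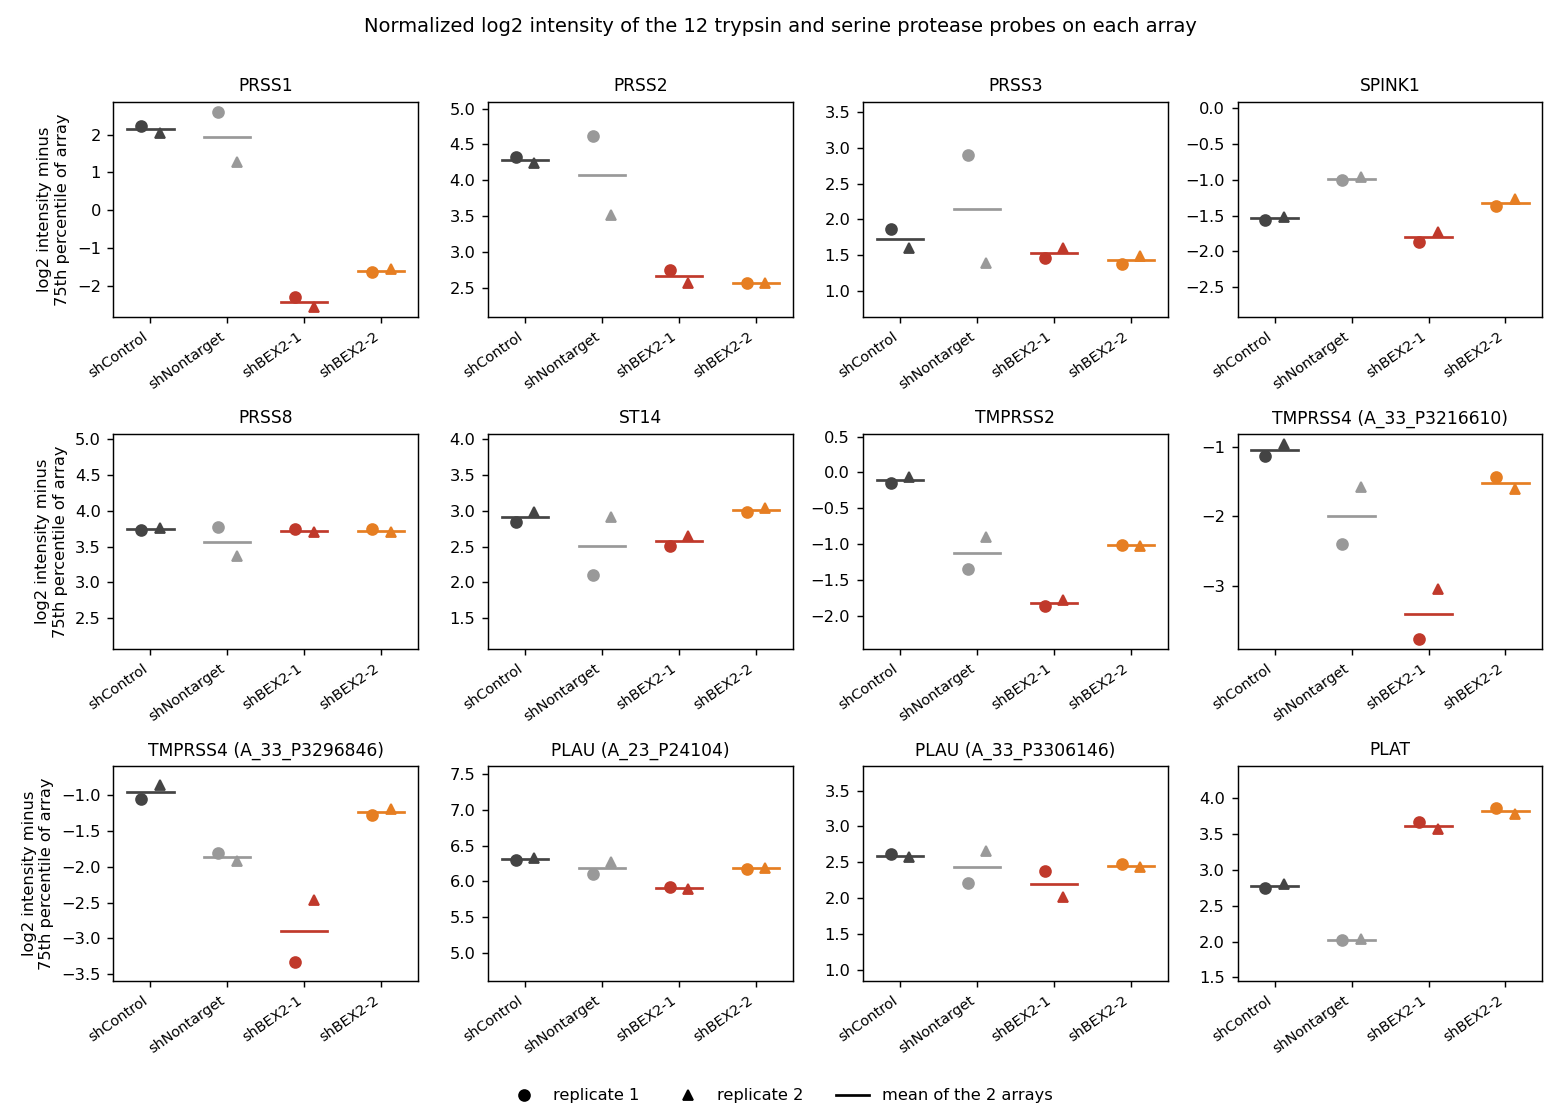
Normalized log2 intensity (log2 of the processed intensity minus the 75th percentile of the array, vertical axis) of each of the 12 probes on each of the 8 arrays, by vector (horizontal axis), with circles for replicate 1, triangles for replicate 2 and a line at the mean of the 2 arrays; panels differ in range. PRSS1 and PRSS2 are lower and PLAT is higher on every BEX2-knockdown array than on any control array, and TMPRSS2 and TMPRSS4 are lowest in shBEX2-1.

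Of the membrane-anchored proteases, PRSS8 and ST14 overlapped between the groups. PRSS8, prostasin, a lipid-anchored activator of the epithelial sodium channel, lay between 3.70 and 3.77 on 7 of the 8 arrays, with 3.37 on shNontarget replicate 2. Its difference between knockdown and control was 0.07 (SE 0.131, n = 4 against 4). ST14 was at 2.84 and 2.99 in shControl, 2.11 and 2.91 in shNontarget, 2.51 and 2.65 in shBEX2-1, and 2.99 and 3.03 in shBEX2-2. Its groups overlapped, with a difference of 0.08 (SE 0.219), and its sign was unlike in the sublines, -0.13 (SE 0.231) in shBEX2-1 and 0.30 (SE 0.231) in shBEX2-2.

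TMPRSS2 and TMPRSS4, type II transmembrane proteases known for cutting viral glycoproteins and surface substrates, varied between the vectors of each arm. TMPRSS2 was at -0.16 and -0.06 in shControl, -1.34 and -0.90 in shNontarget, -1.87 and -1.78 in shBEX2-1, and -1.01 and -1.02 in shBEX2-2. Its highest arrays were those of shControl and its lowest those of shBEX2-1, and shNontarget and shBEX2-2 overlapped between them. The difference of knockdown against control was -0.80 (SE 0.328, n = 4 against 4), but it was -1.31 against shControl alone and -0.30 against shNontarget alone.

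TMPRSS4 has a pair of probes. The first of them (A_33_P3216610) read -1.13 and -0.96 in shControl, -2.41 and -1.59 in shNontarget, -3.77 and -3.05 in shBEX2-1, and -1.44 and -1.61 in shBEX2-2. The other (A_33_P3296846) read -1.06 and -0.86, then -1.81 and -1.92, then -3.33 and -2.47, and then -1.28 and -1.20, in the same order of vectors. Both probes put shControl highest, shBEX2-2 next, then shNontarget and shBEX2-1 lowest, with the shBEX2-1 arrays below all others. Against the controls shBEX2-1 differed by -1.89 (SE 0.300) and -1.49 (SE 0.249), whereas shBEX2-2 differed by -0.0020 (SE 0.300) and 0.18 (SE 0.249). The 2 sublines together gave -0.94 (SE 0.537) and -0.66 (SE 0.478), and the groups overlapped on both probes.

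The plasminogen activators went different ways. PLAT was at 2.74 and 2.81 in shControl, 2.02 and 2.03 in shNontarget, 3.66 and 3.57 in shBEX2-1, and 3.87 and 3.78 in shBEX2-2. All BEX2-knockdown arrays were above all control arrays, and the difference was 1.32 (SE 0.209, n = 4 against 4), a 2.50-fold higher level, with 1.22 (SE 0.119) in shBEX2-1 and 1.43 (SE 0.119) in shBEX2-2. The 4 vectors had no overlapping neighbours in the order shBEX2-2, shBEX2-1, shControl and shNontarget.

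PLAU was bright on its 10-spot probe (A_23_P24104), at 6.31 and 6.32 in shControl, 6.11 and 6.27 in shNontarget, 5.92 and 5.89 in shBEX2-1, and 6.18 and 6.18 in shBEX2-2. Its other probe (A_33_P3306146) ranged from 2.20 to 2.66 on the control arrays and from 2.02 to 2.48 on the BEX2-knockdown arrays. The groups overlapped on both probes, and the differences were -0.21 (SE 0.145) and -0.19 (SE 0.155). Both probes had shControl highest and shBEX2-1 lowest by their means.

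**Figure D2:**
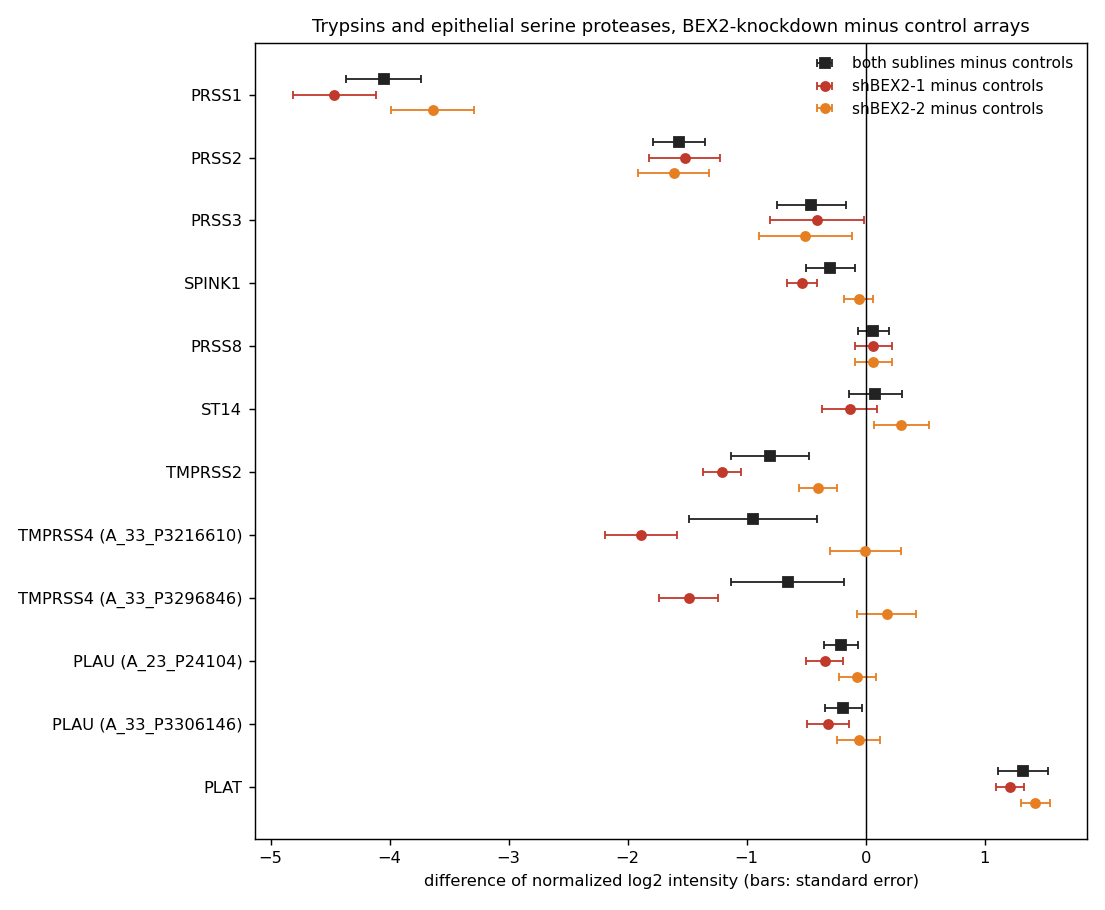
Fitted difference of normalized log2 intensity between BEX2-knockdown and control arrays (horizontal axis) for each of the 12 probes, for both sublines together (squares) and for each subline (circles), with bars of 1 standard error. The bars of the squares include differences between the vectors of a group and those of the circles do not. PRSS1 lies at -4.05 and PRSS2 at -1.57, PLAT lies at 1.32, and the TMPRSS4 probes lie at -1.89 and -1.49 in shBEX2-1 and near 0 in shBEX2-2.

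Counted over the 12 probes, 3 had BEX2-knockdown arrays wholly outside the range of the control arrays, PRSS1 and PRSS2 below it and PLAT above it. Over all probes kept, 22.6% were separated in this way, 10.8% lower and 11.8% higher, and since this contrast was known when the genes were proposed, nothing is read from the count. The other 9 probes, of 7 genes, overlapped between the groups. The median difference of the 12 probes was -0.38, against 0.03 over all 25071 probes. The number of separated probes was 8 with shControl alone as the control, where 55.3% of all probes were separated, and 4 with shNontarget alone, where 28.9% were.

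The sublines were tested against each other, since the difference known when the genes were proposed was that between knockdown and control. Earlier results of these data were known too, so the choice of genes may not be independent of this contrast or of that between the control vectors. With 1 spread shared by all 8 arrays, limma called 0 of the 12 probes between shBEX2-1 and shBEX2-2, and 3 of all 25071 probes (0.012%). In simulated data this test recovered 0% of changes of 1 log2 unit and 52% of changes of 2. The lack of calls therefore does not show equal levels. The simulation gave every array of a probe the same spread, unlike the shNontarget arrays here. It thus does not show what the subline arrays alone could recover. At an unadjusted p under 0.05 there were 4 of the 12, namely both TMPRSS4 probes, TMPRSS2 and SPINK1, against 7.15% of all probes. The TMPRSS4 probes had differences, shBEX2-1 minus shBEX2-2, of -1.88 (95% interval -2.72 to -1.05, adjusted p = 0.178) and -1.66 (-2.36 to -0.968, adjusted p = 0.158). The difference was -0.80 for TMPRSS2 (-1.25 to -0.360, adjusted p = 0.266), -0.48 for SPINK1 (-0.822 to -0.128, adjusted p = 0.445) and -0.83 for PRSS1 (-1.80 to 0.146, adjusted p = 0.800). For PRSS2 the interval of the difference ran from -0.740 to 0.924 and for PLAT from -0.544 to 0.121.

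The calls between the sublines depended on the shNontarget arrays, which enter that test only through the shared spread. In limma fits to the 4 subline arrays alone, 7 of the 12 probes passed an adjusted p of 0.05, and so did 12.7% of all probes. These were both TMPRSS4 probes (adjusted p = 0.00378 and 0.0084), TMPRSS2 (0.00456), PRSS1 (0.0101), ST14 (0.0177), SPINK1 (0.0345) and the 10-spot PLAU probe (0.0471), all lower in shBEX2-1. Leaving out shNontarget replicate 1 or replicate 2, which leaves that vector 1 array assumed to vary like the others, gave 6 of 12 either way, against 13.5% and 13.9% of all probes. Those 6 were the same probes except PLAU.

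**Figure D3:**
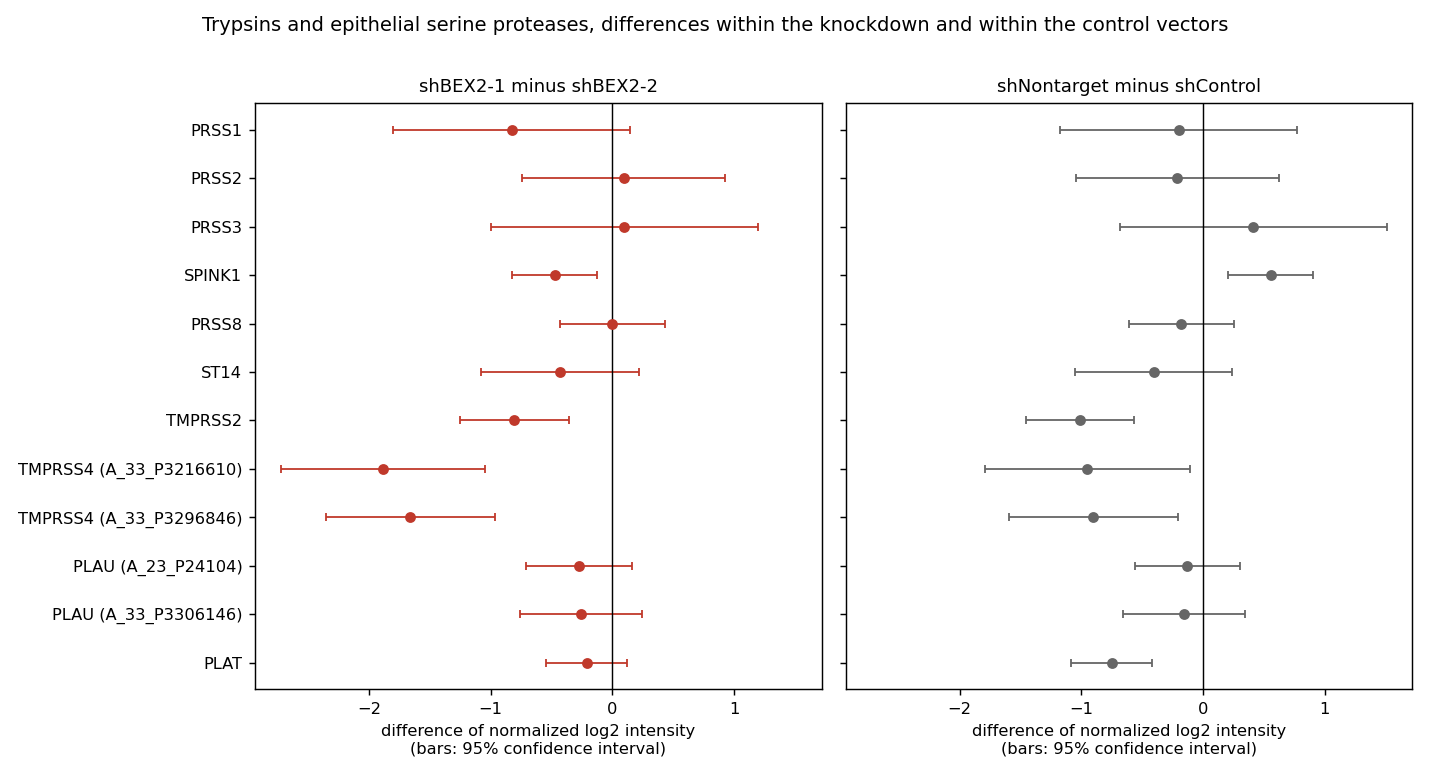
Fitted difference of normalized log2 intensity (horizontal axis) between the BEX2-knockdown sublines (left) and between the control vectors (right) for each of the 12 probes, with bars of the 95% confidence interval from the fit of all 8 arrays. The TMPRSS4 probes lie at -1.88 and -1.66 on the left, and TMPRSS2 lies at -0.80 on the left and at -1.01 on the right.

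The same test between the control vectors shNontarget and shControl called 0 of the 12 probes by limma, and 0 of all probes (0%). At an unadjusted p under 0.05 there were 5 of the 12, against 7.43% of all probes. The difference, shNontarget minus shControl, was -1.01 for TMPRSS2 (95% interval -1.46 to -0.568, adjusted p = 0.384) and -0.75 for PLAT (-1.08 to -0.416, adjusted p = 0.384). It was -0.95 (-1.79 to -0.111, adjusted p = 0.615) and -0.90 (-1.60 to -0.209, adjusted p = 0.560) for the TMPRSS4 probes and 0.56 for SPINK1 (0.209 to 0.902, adjusted p = 0.462). For PRSS1 the difference was -0.20, with an interval from -1.17 to 0.776. It was called in opposite directions when 1 shNontarget array was left out, at -0.86 without replicate 1 (adjusted p = 0.00238) and 0.46 without replicate 2 (adjusted p = 0.0286). In those fits, where that vector is 1 array, 44.3% and 45.4% of all probes passed.

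Around these genes, 6 lists of related proteases, inhibitors and targets were measured, 134 genes of which 130 were on the array and 63 were bright enough to test. Between BEX2-knockdown and control arrays 15 of the 63 were called at an adjusted p under 0.05, 7 higher and 8 lower. Of all genes tested 13.3% were called, 6.88% higher and 6.41% lower, and of all probes 13.6%. The median difference was -0.0099 for the lists and 0.03 for all genes. The lists were chosen with earlier results of these data known, so their counts and adjusted p-values between knockdown and control are no independent evidence. Between the sublines limma called 0 of the 63 genes (0.00977% of all genes), and between the control vectors 0 (0%). At an unadjusted p under 0.05 there were 8 and 16 of the 63, against 7.23% and 7.58% of all genes.

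In the plasminogen system 2 of 7 tested genes were called (28.6%), against 13.3% of all genes. SERPINB2, an inhibitor of both plasminogen activators, rose by 2.81 (SE 0.261, adjusted p = 7.6e-04), from between -1.32 and -0.86 to between 1.20 and 2.28. THBD, thrombomodulin, fell by 1.25 (SE 0.216, adjusted p = 0.00689). The groups of these 2 genes did not overlap. PLAUR, the urokinase receptor, differed by 0.06 (SE 0.191, adjusted p = 0.866), and plasminogen itself (PLG) was well above background on 2 arrays and was not tested.

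Of 20 tested protease inhibitors 4 rose and 2 fell, so 30% were called, against 13.3% of all genes. TFPI2, a Kunitz inhibitor of trypsin and plasmin, rose by 1.98 (SE 0.333, adjusted p = 0.00629), and SPINK4, a relative of SPINK1, rose by 2.21 (SE 0.569, adjusted p = 0.0333), although shNontarget replicate 1 at 0.11 lay among the BEX2-knockdown arrays. SERPINB8 rose by 0.77 (SE 0.205, adjusted p = 0.0378), and SERPINH1, a collagen chaperone named here after its value was seen, rose by 0.56 (SE 0.155, adjusted p = 0.0441). SERPINA5 fell by 1.42 (SE 0.381, adjusted p = 0.0395) and SPINT1, the matriptase inhibitor, fell by 0.61 (SE 0.158, adjusted p = 0.0335). With the replicate number as a block SERPINA5 had an adjusted p of 0.0528. SPINT2 differed by 0.23 (SE 0.180, adjusted p = 0.443). SERPINA3, also named after its values were seen, was not called on its brightest probe (-0.35, adjusted p = 0.401). Its other probes were unlike, at -2.26 (A_23_P2920, adjusted p = 0.0153) and -0.26 (A_23_P162918, adjusted p = 0.793).

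Of the other proteases, 25% of the tested PRSS and pancreatic zymogen genes were called, 14.3% of the kallikreins and 20% of the type II transmembrane proteases, against 13.3% of all genes. Of 12 tested PRSS and pancreatic zymogen genes, PRSS12, neurotrypsin, rose by 0.74 (SE 0.134, adjusted p = 0.00859), and PRSS22 fell by 0.93 (SE 0.181, adjusted p = 0.0112) and PRSS23 fell by 0.81 (SE 0.201, adjusted p = 0.0287). KLK10 was the 1 kallikrein of 7 called, higher by 1.03 (SE 0.244, adjusted p = 0.0238), on a probe well above background on all 4 BEX2-knockdown arrays but on 1 of 4 control arrays, so its control level is mostly background. TMPRSS7 was the 1 of 5 type II transmembrane proteases called, and fell by 1.16 (SE 0.262, adjusted p = 0.0197). TMPRSS15, the enteropeptidase that activates trypsinogen, differed by -0.88 (SE 0.496, adjusted p = 0.287) near the background.

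Of 12 tested substrates and receptors, 2 were called (16.7%), close to the 13.3% of all genes. Both are protease-activated receptors. F2RL1, cut by trypsin, fell by 0.61 (SE 0.173, adjusted p = 0.0484), from between 5.13 and 5.77 to between 4.77 and 5.06. With the replicate number as a block its adjusted p was 0.0573. F2R, the thrombin receptor, fell by 1.002 (SE 0.247, adjusted p = 0.0285) on its brighter probe and differed by 0.01 on its other probe. F2RL3, another thrombin receptor, differed by 0.07 (SE 0.168, adjusted p = 0.839).

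The count over the lists depended on the control vector. With shControl alone as the control 27 of the 63 genes were called, beside 33.6% of all genes, and with shNontarget alone 3 were, SERPINB2 and TFPI2 among them, beside 1.77%. These 2 genes were called under all 20 alternatives tried, and PRSS12, PRSS22 and THBD under 19. The other calls were less stable. F2R was called under 13 of 20, SPINT1 under 12, PRSS23 and SERPINB8 under 11, SPINK4 under 10, and F2RL1 and SERPINH1 under 9. TMPRSS7 and KLK10 were called under 14 of 19 alternatives and SERPINA5 under 8. These last 3 probes were not well above background on every array, and with normexp background correction their differences were -0.21 for TMPRSS7 (adjusted p = 0.367), -0.24 for SERPINA5 (adjusted p = 0.380) and 0.48 for KLK10 (adjusted p = 0.0142).

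**Figure D4:**
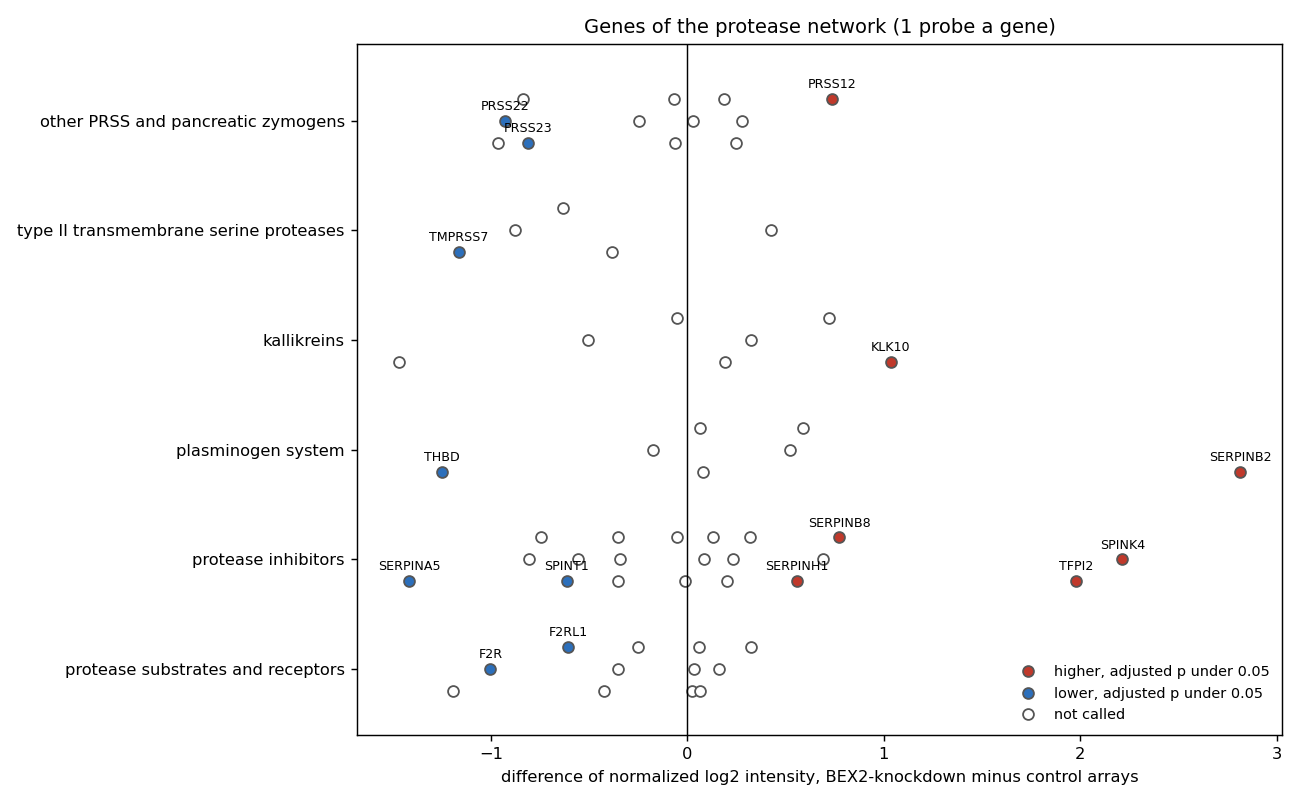
Fitted difference of normalized log2 intensity between BEX2-knockdown and control arrays (horizontal axis) for the 63 tested genes of the 6 protease lists (rows), 1 point for the brightest probe of each gene, filled and named where the adjusted p was under 0.05. SERPINB2 at 2.81, SPINK4 at 2.21 and TFPI2 at 1.98 lie farthest to the right, and SERPINA5 at -1.42 is the lowest of the filled points.

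By likeness of pattern, the genes nearest to PRSS1 over the 8 arrays were TMEM61 (Pearson r = 0.996), IARS (0.991), GLP2R (0.991), MYH16 (0.990) and FLJ42709 (0.990), out of 20447 genes compared. Their differences between knockdown and control ranged from -1.54 to -0.80, smaller than that of PRSS1. These correlations are a description over arrays that fall into 2 clusters and share a slide.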

How the data were processed

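The authors labelled total RNA of HuCCT1 cells with Cy3, hybridized it to Agilent arrays and read them with Agilent Feature Extraction 10.7.3.1 (the version is from the submitters' processing notes). Per the file headers, that software subtracted background from the deposited intensity, detrended it within the array and put a surrogate in place of low values. The arrays were not scaled to each other. The deposited series table held the same intensities within 0.497%. Probe coordinates are hg19, per the file headers, and gene names are those of the array design.

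Control spots and non-uniform spots were left out, log2 intensity was centred on each array's 75th percentile, spots of a probe were averaged, and a probe was kept if at least 4 of 8 arrays had it well above background (25071 probes, 20464 genes). A gene outside the 10 was represented by its brightest probe. Groups followed the labels: 4 arrays of shBEX2-1 and shBEX2-2 against 4 of shControl and shNontarget. limma 3.58.1 in R 4.3.3 (lmFit, eBayes with trend) was fitted to all probes, with Benjamini-Hochberg adjustment over all of them and a threshold of 0.05. A model with the 4 vectors gave each subline against both controls, the sublines against each other and the control vectors against each other. Its standard errors rest on the spread between arrays of the same vector, whereas those of knockdown against control also hold differences between vectors. Tables, sequences and figures were made with Python 3.11.15, numpy 2.4.6, pandas 2.3.3, matplotlib 3.10.9 and biopython 1.88, and statmod 1.5.0 served the fit with vector as a random block. The fits were tested on simulated data in which 200 of 25071 probes were changed and every array of a probe had the same spread. Knockdown against control recovered 33.5% of changes of 1 log2 unit and 84% of changes of 2. The comparison of the sublines recovered 0% and 52%.

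The genes and lists were chosen with earlier results of these data known. Named genes are every probe of the 10, the 3 largest rises and falls among called genes of each list, 6 direct partners (F2RL1, PLAUR, SPINT1, SPINT2, TMPRSS15, PLG), the 5 genes most like PRSS1, and BEX2. Of the listed genes, PRSS55, TPSB2, AMY2A and SPINK13 were not found on the array under the names searched, and 1 more is not reported here and is left out of every count. RefSeq promoters (GRCh38.p14) were matched by symbol, and of the 10 genes PRSS1, PRSS2, PRSS3, SPINK1 and PLAU had an entry. The study's methods name a rank product, which permutes over genes and was not used, and a t-test, which was run as an alternative. Alternatives covered normalization, background correction, the series table, the filter, the choice of probe, the replicate block, each control vector alone, the 4-vector model, vector as a random block and each array left out.

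Replicate numbers 1 and 2 are shared by the 4 vectors, and the deposited file names carry a day for each number without saying what was done on it, so the numbers may pair the arrays. The fits reported have no replicate block, and the fit with it was an alternative. The replicate differences of 2 vectors correlated across probes with r of 0.245, 0.117, 0.108, -0.0716, 0.202 and 0.228, and with 1 of them below 0 the pairing is not certain.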

Additional observations from a re-analysis of the deposited data

Results flagged for a closer look

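Of 58 groups of 4 arrays examined (12 probes and 17 named genes, each in the control and the BEX2-knockdown arrays), 5 had a lone array whose gap to its nearest neighbour, as a share of the group's range, passed Dixon's 95% critical value. Chance flags about 1 in 20 groups of independent arrays. Each group here holds 2 vectors with 2 arrays each, so that rate need not hold. In the control arrays the lone array was each time one of shNontarget. PRSS8 was 3.37 on shNontarget replicate 2, against 3.73 to 3.77 on the others. ST14 was 2.11 on shNontarget replicate 1, against 2.84 to 2.99. PRSS22 was 2.09 on shNontarget replicate 2, against 1.30 to 1.42, and SPINK4 was 0.11 on shNontarget replicate 1, against -2.68 to -2.32. In the BEX2-knockdown arrays PRSS2 was 2.75 on shBEX2-1 replicate 1, against 2.56 to 2.57. No cause was tested.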

How the results depend on the processing

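The depth of the arrays is fixed, so precision is limited by 2 arrays a vector and by the spread of shNontarget. The count of all probes called between knockdown and control (3419) ranged from 1581 to 5877 when 1 array was left out, and was 8427 with shControl alone and 443 with shNontarget alone as the control. Of the 3419, 51.8% were higher, against 64.5% of 3575 with normexp background correction. For the 15 called list genes the count ranged from 5 to 22 when 1 array was left out (8 without shControl replicate 1, 7 without shControl replicate 2, 6 without each shBEX2-1 array, and 6 and 5 without shBEX2-2 replicates 1 and 2), and was 27 with shControl alone, 3 with shNontarget alone, 9 without the filter on dim probes and 7 by the methods' t-test, which called 2770 of 25071 probes after adjustment and 6776 before. Between the sublines 0 probes of the 10 genes were called, 0 to 6 when 1 array was left out and 7 with the 4 arrays compared alone. Between the control vectors 0 were called, and 0 to 9 when 1 array was left out. The highest counts, 7 and 9, came without shNontarget replicate 1 and replicate 2, where 44.3% and 45.4% of all probes passed and that vector is 1 array. The separated probes numbered 3, or 3 to 6 when 1 array was left out (6 without shNontarget replicate 1, where 37.3% of all probes were separated), and 8 with shControl alone (55.3%). The replicate block left 13 list genes called, losing F2RL1 and SERPINA5, and kept the calls of BEX2, EPHB6 and ENST00000417977 (adjusted p = 0.0126, 0.00171 and 0.0362). It called 3171 of all probes and 0 of the 12 probes in either test.

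Some directions turned. When 1 array was left out, differences between the control vectors ranged from -0.86 to 0.46 for PRSS1, from -0.76 to 0.34 for PRSS2, from -0.34 to 1.17 for PRSS3, from -0.38 to 0.020 for PRSS8 and from -0.39 to 0.070 for the weaker PLAU probe (A_33_P3306146), turning without shNontarget replicate 1 (PRSS3, PLAU) or replicate 2 (the others). Between the sublines PRSS8 ranged from -0.023 to 0.024, and was -0.0365 with quantile normalization and -0.047 with normexp. PLAUR between knockdown and control ranged from -0.098 to 0.18, and was -0.00981 with shControl alone. Between knockdown and control PRSS8 (0.07) was -0.031 without shNontarget replicate 2, -0.024 with shControl alone and -0.019 with normexp, and ST14 (0.08) was -0.12 without shNontarget replicate 1 and -0.12 with shControl alone. The causes were not tested. For the 12 probes between knockdown and control 209 of 214 alternative values moved by less than 1 SD. The other 5 were PRSS1 at -3.49 with normexp, TMPRSS2 at -1.31 and -0.30 and PLAT at 0.95 and 1.70 with shControl or shNontarget alone as the control.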

Other observations

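PRSS1 and PRSS2 lie 22565 bases apart, from the start of one probe to the end of the other, inside the T cell receptor beta locus on chromosome 7 (hg19). Within 150 kb of them the array holds 18 further probes, of which 7 were bright enough to test and 2 were called between BEX2-knockdown and control arrays, both lower, against 6.57% of all probes called lower. EPHB6, a kinase-dead ephrin receptor, fell by 2.18 (SE 0.224, adjusted p = 0.00103 by limma), from between 1.95 and 3.02 to between 0.19 and 0.62. The unnamed transcript ENST00000417977 fell by 0.95 (SE 0.227, adjusted p = 0.0247) and was called under 13 of 20 alternatives, EPHB6 under all 20. The TRPV6 probes differed by -0.29 (SE 0.370, adjusted p = 0.665) and -0.50 (SE 0.215, adjusted p = 0.161). The window was chosen after the trypsin values were known.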
